A study of Mus musculus with 2 samples.

Results

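The genes described here encode the protein subunits of the mitochondrial respiratory chain that are made from nuclear DNA. They were chosen by symbol: 97 of the 31054 gene features began with Ndufa, Ndufb, Ndufc, Ndufs, Ndufv, Sdh, Uqcr, Cox4, Cox5, Cox6, Cox7, Cox8 or Atp5, and 13 assembly factors or non-subunit genes were left out. The remaining 84 features (83 distinct symbols, on 19 chromosomes) comprised 36 of complex I, 4 of complex II, 8 of complex III, 20 of complex IV and 16 of complex V. Ndufa4 and Ndufa4l2, named after complex I but known as subunits of the cytochrome oxidase complex, were counted with complex IV.

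Complexes I and II pass electrons from NADH and succinate to ubiquinone, complex III passes them to cytochrome c, complex IV reduces oxygen, and complex V, the ATP synthase, uses the proton gradient so formed to make ATP. Most subunits are encoded in the nucleus and imported, and a small core is encoded by mitochondrial DNA. Hepatic stellate cells (HSCs) store vitamin A in the quiescent liver and make collagen when activated. Several complex IV subunits exist as isoforms used in particular tissues, and both Ndufa4l2 and Cox4i2 are known as hypoxia-associated isoforms, Ndufa4l2 also as a gene of pericytes and related mural cells.

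The cells were an HSC preparation from the livers of male C57BL/6 mice given CCl4, a hepatotoxin that causes fibrosis, for 4 weeks, together with Tamoxifen and Diphtheria toxin. p16-Alb-LRTD mice were heterozygous for p16-CreERT2, for Alb-DreERT2 and for the R26-CAG-LSL-RSR-tdTomato-2A-DTR allele, so that hepatocytes with high p16 activity expressed the toxin receptor and were eliminated. p16-LRTD mice lacked Alb-DreERT2 and served as the control without elimination. HSCs were isolated by pronase and collagenase digestion and a Nycodenz gradient. Hepatocytes, in which the alleles together turn on the toxin receptor, were not sequenced in this experiment. Each genotype was 1 library, and how many mice were pooled into it is not stated. Genotype and library therefore cannot be told apart, no test between genotypes was possible, and all intervals are 95% intervals that cover counting error only.

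The libraries held 11149 (p16-LRTD) and 8806 (p16-Alb-LRTD) barcodes, 95 of them shared in sequence, with 193746596 and 162219167 unique molecular identifiers (UMIs) in total. After the study's limits on mitochondrial share, genes and UMIs, 9004 and 7416 cells remained, and its further removal of clusters with few genes was not repeated here. Stellate cells had at least 15 UMIs of Lrat, Ecm1, Hgf and Reln per 10000, endothelial cells at least 8 of Kdr, Stab2 and Ptprb, and Kupffer cells at least 8 of Clec4f, Cd5l and Vsig4. This gave 7852 and 6622 stellate, 430 and 284 endothelial and 273 and 175 Kupffer cells, with median UMIs of 17024.5 and 18136.5, 11781 and 12016.5, and 19514 and 25244. Barcodes that reached the limits of more than 1 class (245 and 219) were left out, and 35 to 52 cells a library lay within 20% of the stellate limit, 3 to 12 within that of the other classes. Marker genes that the limits did not use summed highest in their own class. The 5 further stellate genes reached 24552 and 27285 counts per 1000000 UMIs (CPM) in stellate cells and at most 436 in the other classes. Stellate marker RNA was thus present at a low level in the other classes, and the 4 genes of the stellate limit summed to 292 and 397 CPM in endothelial cells. The 6 further Kupffer genes reached 11575 and 13503 CPM in Kupffer cells and at most 104 elsewhere. The 5 further endothelial genes reached 4448 and 4215 CPM in endothelial cells, but also 527 and 746 CPM in Kupffer cells. Of these, Cdh5 stood at 978 and 914 CPM in endothelial and at 375 and 536 CPM in Kupffer cells. None of the genes that defined a class was at 0 in that class, which the limits themselves all but fixed in advance.

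The members made up 1.27% and 1.15% of all UMIs in stellate cells of the p16-LRTD and p16-Alb-LRTD libraries. In endothelial cells the share was 1.11% (1.10 to 1.12) and 0.833% (0.824 to 0.842). In Kupffer cells it was 1.21% (1.20 to 1.22) and 1.06% (1.05 to 1.07). The p16-Alb-LRTD library was thus lower in each of the 3 classes, by the widest margin in endothelial cells, and the difference exceeded the counting error in each. The median share per cell was 1.26% and 1.15% in stellate, 1.08% and 0.835% in endothelial and 1.11% and 0.992% Kupffer cells, for the same order of libraries. In stellate cells of p16-LRTD alone it ran from 1.09% to 1.45% between the lower and upper quartiles. In those of p16-Alb-LRTD it ran from 0.995% to 1.32%, so the libraries overlapped widely cell by cell.

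**Figure D1:**
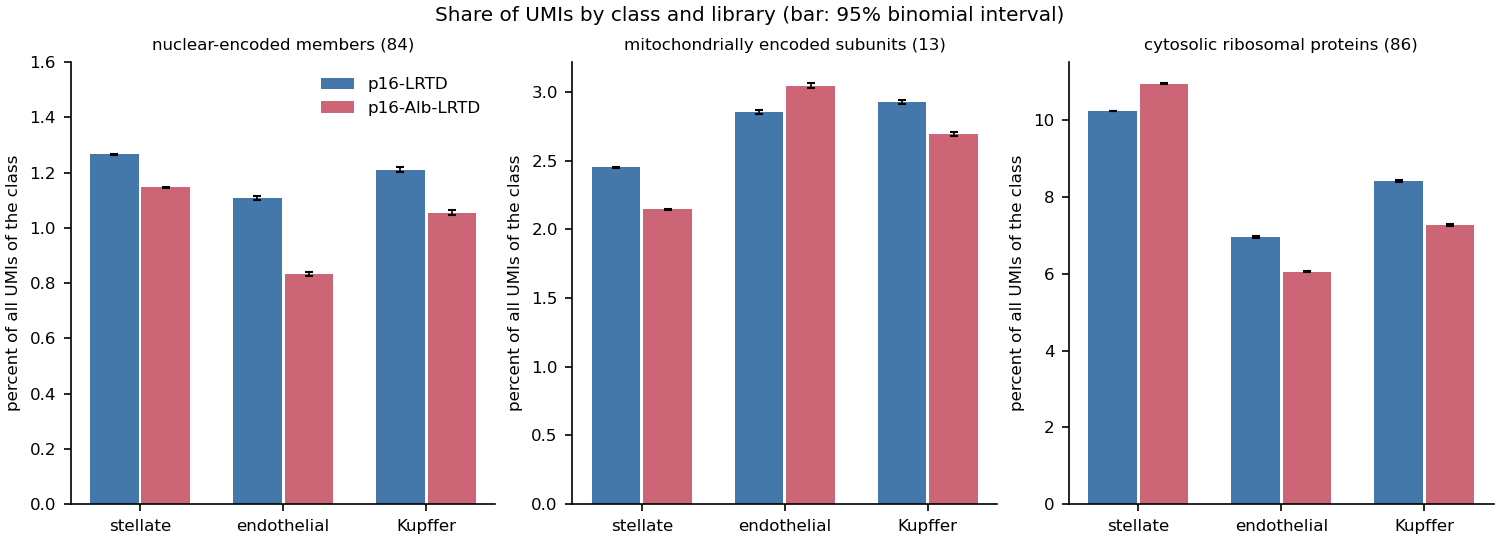
Percent of all UMIs of a class (bars, 95% binomial interval for counting error) that fell on the 84 nuclear-encoded members, the 13 mitochondrially encoded subunits and 86 cytosolic ribosomal proteins, in each library. The members were lower in p16-Alb-LRTD in all 3 classes (1.11% against 0.833% in endothelial cells), whereas the mitochondrially encoded subunits were higher there in endothelial cells (2.86% against 3.05%) and the cytosolic ribosomal proteins higher in stellate cells (10.2% against 10.95%).

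The 13 subunits encoded by mitochondrial DNA, which join the members in the same complexes, took 2.45% and 2.15% of UMIs in stellate cells, 2.86% and 3.05% in endothelial cells and 2.93% and 2.69% in Kupffer cells. There were 1.94 and 1.87 mitochondrially encoded UMIs per member UMI in stellate cells, 2.58 and 3.66 in endothelial cells and 2.42 and 2.55 in Kupffer cells. The balance of the 2 genomes' transcripts thus stood nearly level between the libraries in stellate and Kupffer cells and differed most in endothelial cells. Cells above a mitochondrial share of 5% had been removed, which limits the mitochondrially encoded share in every cell kept.

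In stellate cells 79 of 84 members reached 5 CPM as the mean of the libraries. UMIs of this 3′ assay count molecules and were not scaled by length, so the CPM of different genes are compared as molecule numbers. CPM is a share of a class's UMIs, so fewer transcripts of a member and more of other genes cannot be told apart. The median member stood at 121 and 107 CPM in p16-LRTD and p16-Alb-LRTD. By complex, the median was 111 and 97.2 CPM for complex I, 69.2 and 61.2 for complex II, 142 and 134 for complex III, 148 and 129 for complex IV and 201 and 180 for complex V. Complex II, which also serves the citric acid cycle, had the lowest median and ATP synthase the highest in both libraries.

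Within complex I, Ndufa13, an accessory subunit of the membrane arm, had the highest mean of the libraries at 212 and 189.8 CPM, although Ndufa2, an accessory subunit of the matrix arm (204 and 195.5 CPM), was above it in p16-Alb-LRTD. Ndufa9, an accessory subunit at the junction of the arms, was lowest at 35.8 and 32.6. Among the subunits of complex II, Sdha, the flavoprotein that oxidises succinate, stood at 104 and 98.1 CPM and Sdhd, a membrane anchor, at 46.7 and 42.2. The hinge protein Uqcrh led complex III with 308 and 323 CPM, and the core protein Uqcrc1 was lowest with 53.2 and 53.0. Cox6c, a small membrane subunit of complex IV, was the most abundant member of all with 635 and 628 CPM. In complex V, Atp5l, the membrane subunit g, stood at 386 and 338 CPM. The lowest complex V feature was the second of 2 features with the symbol Atp5o (ENSMUSG00000116933, 22.4 and 25.4 CPM). It overlaps the other Atp5o feature (ENSMUSG00000022956, the peripheral stalk protein OSCP, 119 and 98.7 CPM) as well as Cryzl1 and Donson on the same strand, so reads may be split among them and its values are uncertain. Pearson's r of log levels over the 84 members, a description across genes that share library and chemistry, was 0.995 between the libraries in stellate, 0.990 in endothelial and 0.997 in Kupffer cells. It was at least 0.905 between any pair of classes, since the levels span a wide range.

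**Figure D2:**
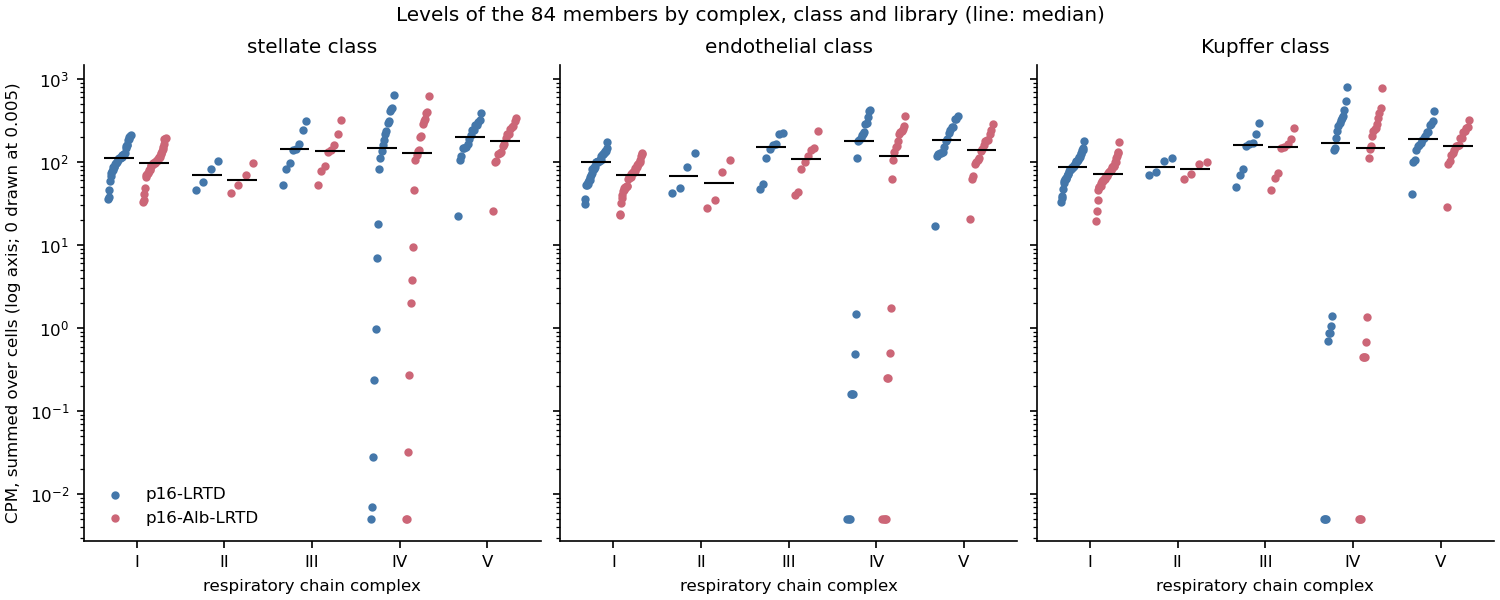
Level of each of the 84 members (points) in CPM on a log axis, by complex, class and library, with the median of each complex as a line and values of 0 drawn at 0.005. Members of complexes I, II, III and V lay between 16.7 and 416 CPM in all classes, and only complex IV held members under 5 CPM, which were its tissue-restricted isoforms.

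Between the libraries, 74 of the 79 stellate members at 5 CPM or more were lower in p16-Alb-LRTD than in p16-LRTD, with a median log2 ratio of -0.14 against -0.05 over all 10179 genes at that level. The size was small for most. A ratio was counted as past the fold where it was at least 0.32 on the log2 scale in either direction. None of the members rose past the fold, as 7.22% of all genes did, and 6 fell past it (7.59% of the members tested), where 11% of all genes did. The 6 were Cox4i2, Cox6b2, Ndufa4l2, Ndufa4, Cox5a and Ndufc2, and all but Ndufc2 belong to complex IV. Cox6b2 reached 5 CPM as a mean only through p16-LRTD, where it was high, so its count as a fall rests on that filter. With 5 CPM required in both libraries, 5 of 78 members fell past the fold (6.41%), against 10.0% of 9941 genes. The share past the fold was therefore not above the background, and most of the members showed only a small shift in the same direction. With TMM scaling, which shifted all ratios by 0.04, 68 of 79 were below 0. The same 6 of 79 then fell past the fold, against 8.53% of all genes, a share near the background.

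Cox4i2, the hypoxia-associated isoform of subunit IV (chr2:152754173-152765037, plus strand, mm10), was counted at 18.1 CPM in the p16-LRTD and 9.54 CPM in the p16-Alb-LRTD library. Its log2 ratio was -0.93 (-1.03 to -0.83). Cox6b2, the testis isoform of subunit VIb (chr7:4751792-4753094, minus strand), was at 7.07 and 3.80 CPM, a log2 ratio of -0.89 (-1.06 to -0.74). For Ndufa4l2 (chr10:127514967-127517154, plus strand, overlapping Shmt2 on the opposite strand) the levels were 82.2 CPM from 11731 UMIs and 46.2 CPM from 5784 UMIs, a ratio of 0.562 or -0.83 on the log2 scale (-0.88 to -0.79). These 3 restricted isoforms had the lowest ratios of the 79 members, between 0.526 and 0.562.

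The other 3 were ubiquitous subunits with high counts. Ndufa4 (chr6:11900292-11907497, minus strand), the common partner of Ndufa4l2, stood at 442 and 327 CPM, a log2 ratio of -0.43 (-0.45 to -0.42). Cox5a (chr9:57521274-57532426, plus strand), a matrix-side subunit of complex IV, stood at 184 and 139 CPM (-0.41, from -0.44 to -0.38). Ndufc2 (chr7:97400003-97407802, plus strand), an accessory subunit of the membrane arm of complex I, stood at 187 and 142 CPM (-0.40, from -0.43 to -0.37). Next in order and short of the fold were Ndufs8, an iron-sulphur core subunit, at -0.29 and the accessory subunit Ndufs5 at -0.27.

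At the other end no member passed the fold. The highest log2 ratios were those of the uncertain Atp5o feature (0.18), of Cox7a2l, counted with complex IV (0.10), of the accessory complex I subunits Ndufa3 (0.08) and Ndufa6 (0.06) and of Uqcrh (0.07). Uqcrc1 (-0.01), Cox6c (-0.02) and Atp5e, the epsilon subunit of the ATP synthase head (-0.02), followed, and all 3 turned above 0 with TMM scaling. Cox6c, the most abundant member, was thus nearly level between the libraries, and Uqcrc1 had an interval that included 0 (-0.05 to 0.04).

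By complex, the stellate medians were -0.15 for complex I (34 of 36 members below 0), -0.12 for complex II (4 of 4), -0.07 for complex III (7 of 8), -0.17 for complex IV (14 of 15) and -0.15 for complex V (15 of 16). Within complex I the Ndufb genes, accessory subunits of the membrane arm, had a median of -0.23 with 10 of 10 below 0 and a range from -0.27 to -0.10, and the Ndufa genes one of -0.10. Their summed share was 0.126% and 0.108% of UMIs for Ndufb and 0.161% and 0.152% for Ndufa. The Ndufb genes were thus lower throughout, but none passed the fold.

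**Figure D3:**
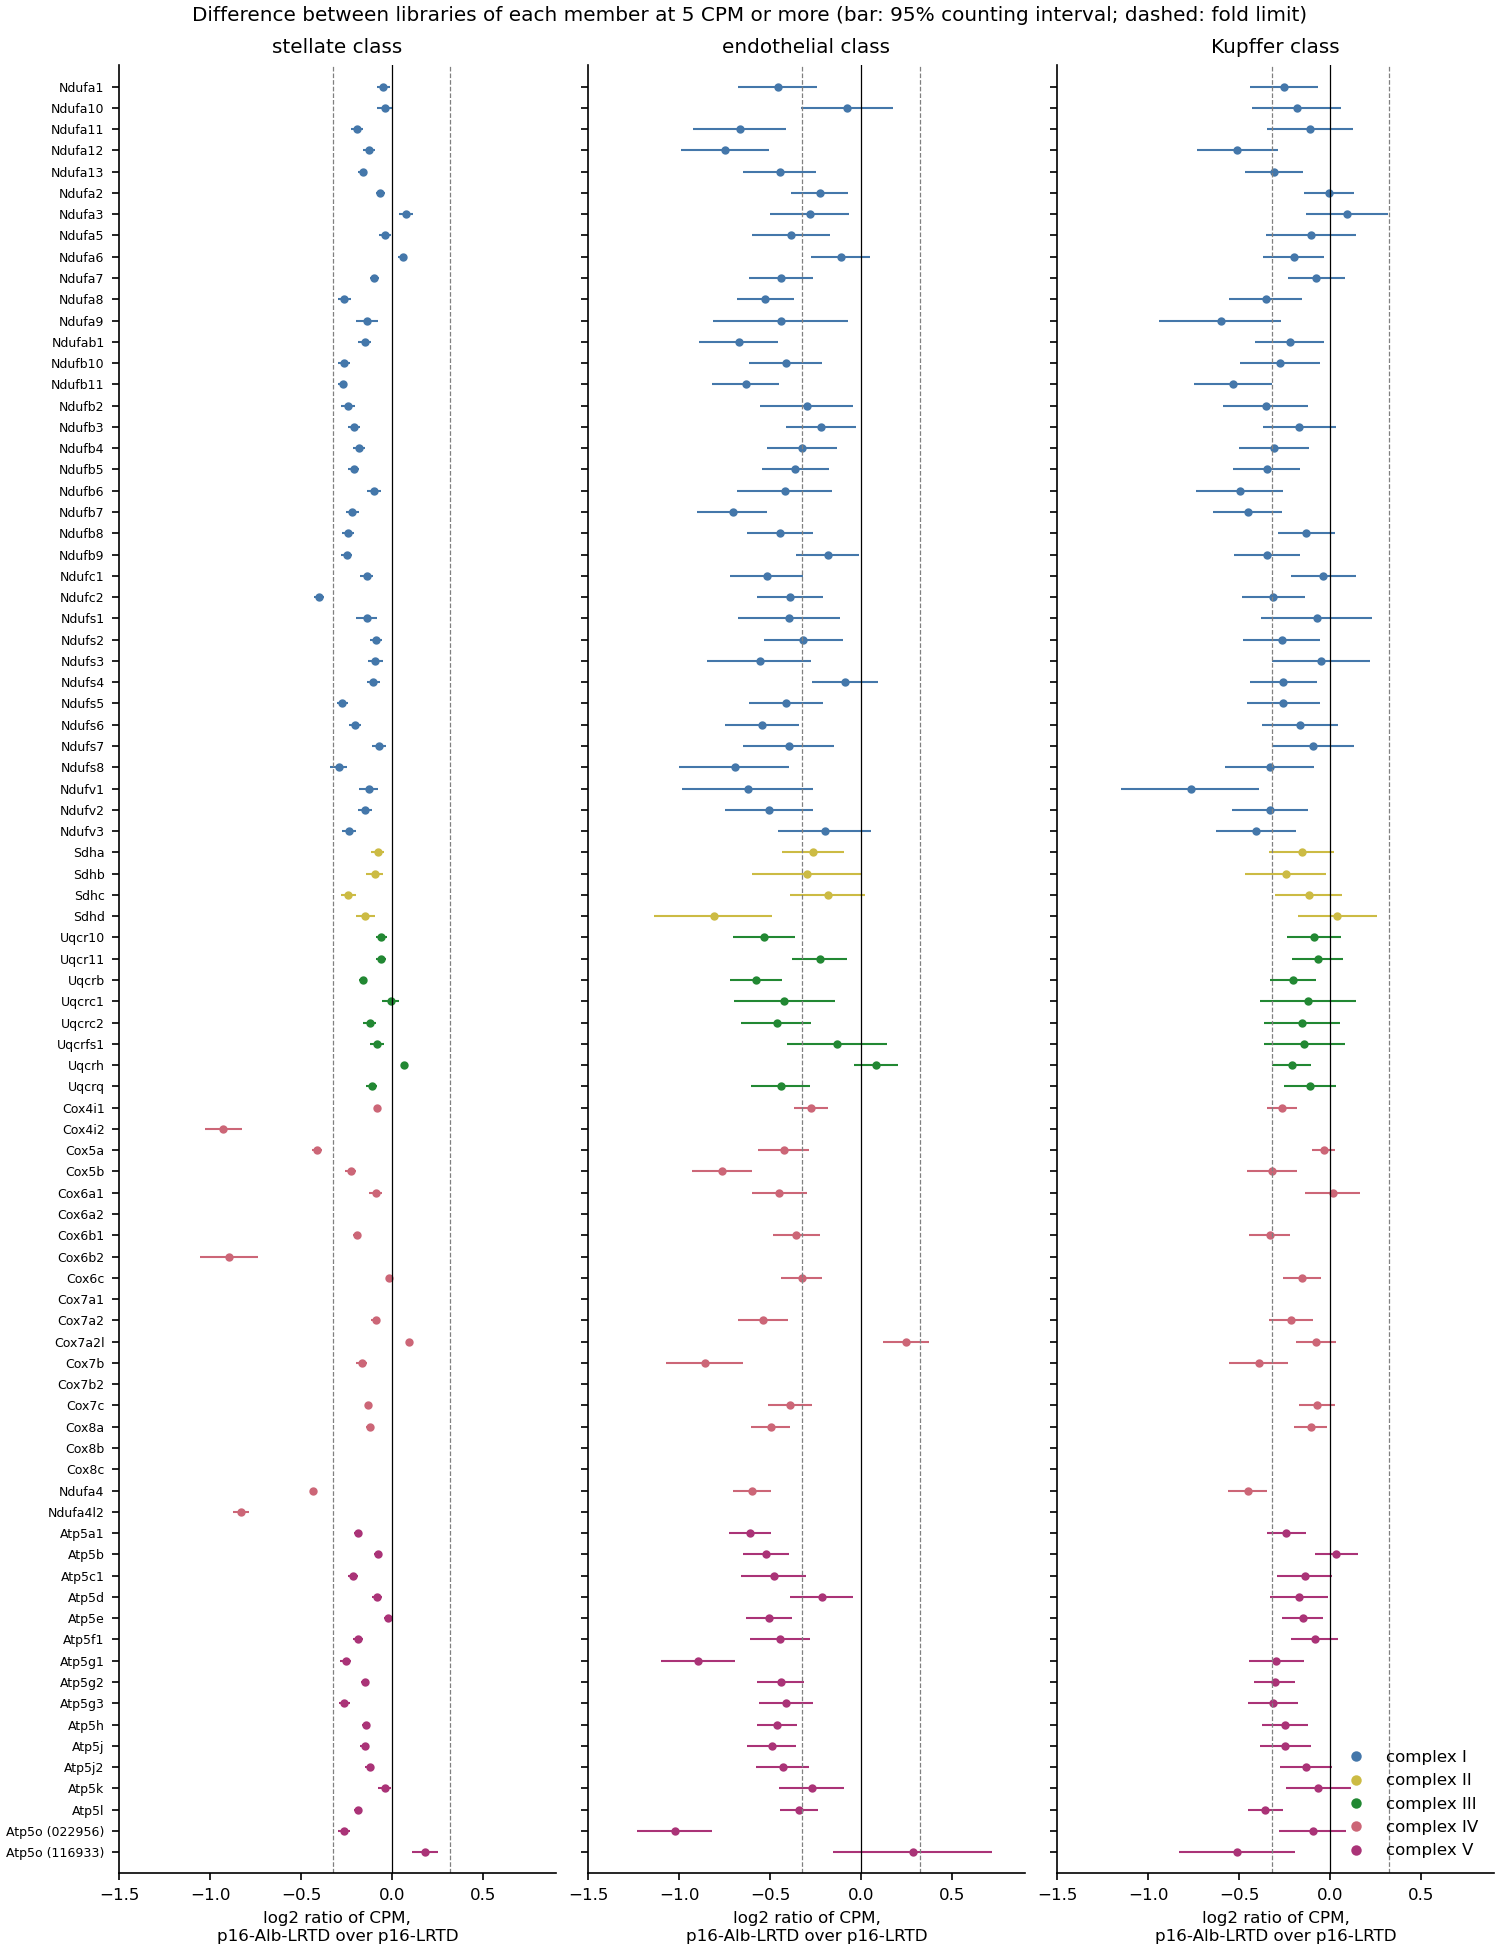
Log2 ratio of CPM (p16-Alb-LRTD over p16-LRTD) of every member at 5 CPM or more, with its 95% counting interval, by class; dashed lines mark the fold at 0.32 either way, and gaps are members below 5 CPM. Points of the stellate class lie mostly just left of 0 with 6 past the lower line, those of the endothelial class lie farther left with 55 past it, and those of the Kupffer class lie between with 18.

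Endothelial cells showed the widest difference. Of 76 members at 5 CPM or more, 73 were lower in p16-Alb-LRTD, the median log2 ratio was -0.43 against -0.10 over all genes, and 55 fell past the fold (72.4% of the members tested), where 29% of 9880 genes did. No member rose past it, against 15.7% of all genes. Members of every complex were among the 55: 26 of 36 in complex I, 1 of 4 in complex II, 5 of 8 in complex III, 10 of 12 in complex IV and 13 of 16 in complex V. The excess depended on the fold chosen: at 1.5-fold 14 of 76 members were lower, against 13.4% of all genes. The lowest were Atp5o (ENSMUSG00000022956), at 128 and 62.9 CPM (-1.02, from -1.23 to -0.82), and Atp5g1, one of the genes for the c ring of the ATP synthase, at 127 and 68.4 CPM (-0.90). Cox7b, a small subunit of complex IV, followed at 112 and 61.7 CPM (-0.86) and Sdhd at 48.4 and 27.6 CPM (-0.81).

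Among the highest in endothelial cells were the uncertain Atp5o feature (0.29, from -0.15 to 0.72), Cox7a2l (0.25, from 0.12 to 0.37; 194 and 230 CPM), Uqcrh (0.08) and the accessory complex I subunit Ndufa10 (-0.08). Cox7a2l and Uqcrh therefore had ratios above 0 in both stellate and endothelial cells. The endothelial class held 430 and 284 cells at a lower median depth than the other classes, so single-gene intervals were wide. The collagen and actin genes of activated HSCs (Col1a1, Col1a2, Col3a1, Acta2, 4 of 4 detected) summed to 644 and 42.3 CPM there, whereas the 4 genes of the stellate limit summed to 292 and 397 CPM and 5 further stellate genes to 436 and 342 CPM. Genes of proliferation (4 genes, 35.1 and 4.23 CPM), of lymphocytes (4 genes, 8.61 and 0 CPM) and of portal fibroblasts or mesothelium (3 genes, 12.7 and 0.746 CPM) were also lower in p16-Alb-LRTD, and those of hepatocytes (7 genes, 93.1 and 113 CPM) and Kupffer cells (6 further genes, 58.0 and 104 CPM) higher. The part of these differences in the members' values was not tested.

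In Kupffer cells, the resident macrophages of the liver, 72 of 76 members were lower in p16-Alb-LRTD, with a median of -0.21 against -0.06 over all genes. The fold was passed downward by 18 (23.7% of the members tested), against 18.8% of 9490 genes, a share near the background, and upward by none, against 12.2%. With TMM or median-of-ratios scaling 10 of 76 passed it downward, against 15.6% and 14.9% of all genes, again near the background. Markers of other cells in this class moved in both directions: the 4 genes of activated HSCs summed to 151 and 40.003 CPM, the proliferation genes to 38.6 and 25.5 and the 5 further endothelial genes to 527 and 746. Their part in the members' values was not tested. Complex I contributed 13 of the 18, with 6 of 10 Ndufb genes and all 3 Ndufv genes, named for the flavoprotein part of the complex. Ndufv1, the NADH-binding flavoprotein, was lowest at 33.0 and 19.4 CPM (-0.76, from -1.15 to -0.39), but its ratio turned to 0.29 when cells were thinned to 5000 UMIs. Ndufa9 followed at 39.1 and 25.8 CPM (-0.60), the membrane-arm subunit Ndufb11 at 89.9 and 62.2 CPM (-0.53) and the uncertain Atp5o feature at 41.2 and 28.9 CPM (-0.51). The highest were Ndufa3 (0.09), Sdhd (0.04), the catalytic beta subunit Atp5b (0.03) and Cox6a1, a small complex IV subunit (0.01), each with an interval that included 0. Sdhd stood among the lowest in endothelial cells and among the highest here.

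Other genes of mitochondria and metabolism moved as follows, with the lists described by their counts and medians only. Genes counted as lower or higher were past the fold. Of all genes, 11% were lower and 7.22% higher in stellate, 29% and 15.7% in endothelial and 18.8% and 12.2% in Kupffer cells. Near these shares of lower genes lay the mitochondrial ribosome in stellate cells and the cytosolic ribosome in endothelial and Kupffer cells. In stellate cells the median log2 ratio was -0.16 for 77 mitochondrial ribosomal proteins (10 lower and 1 higher past the fold), -0.15 for the 13 mitochondrially encoded subunits (0 of 13 past the fold), -0.12 for 43 assembly factors (7 lower), -0.12 for 16 citric acid cycle genes (0 past the fold), -0.15 for 16 glycolysis genes (2 lower) and 0.04 for 8 regulators of mitochondrial biogenesis (0 past the fold). For 83 cytosolic ribosomal proteins it was 0.11 (6 higher, 1 lower). In endothelial cells the mitochondrial ribosome stood at -0.50 with 57 of 77 lower, the assembly factors at -0.38 with 24 of 42 lower, the cytosolic ribosome at -0.22 with 22 of 83 lower and the mitochondrially encoded subunits at 0.11 with 0 of 13 past the fold. Kupffer medians were -0.20 (21 of 77 lower), -0.23 (15 of 41 lower and 3 higher), -0.23 (16 of 84 lower and 1 higher) and -0.13 (1 of 13 lower) for the same 4 lists. Citric acid cycle genes had medians of -0.33 in endothelial (8 of 16 lower) and -0.13 in Kupffer cells (1 of 16 lower), and glycolysis genes of -0.28 (6 of 15 lower and 2 higher) and -0.17 (5 of 15 lower). Medians below 0 in all 3 classes were thus shared by several lists and by all genes, whereas 11 of 13 mitochondrially encoded partners were above 0 in endothelial cells.

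The members are short genes, with a median span of 7370 bases and 57 of 84 under 10 kb. All genes under 10 kb at 5 CPM or more had medians of -0.12 in stellate, -0.26 in endothelial and -0.10 in Kupffer cells, and the members of that span -0.15, -0.44 and -0.21. Among genes of 10 to 50 kb the medians were -0.05, -0.14 and -0.05, against -0.14, -0.42 and -0.16 for the members. Up to 50 kb, the members' medians thus lay below those of genes of the same span. Of the members under 10 kb, 4 of 53 fell past the fold in stellate cells, 40 of 51 in endothelial and 10 of 51 in Kupffer cells, against 16.3%, 44.6% and 21.2% of all such genes. Over 50 kb, Ndufs4, an accessory subunit of complex I named for its span after its values were seen, stood at -0.10, -0.09 and -0.26, and the only other member tested was the uncertain Atp5o feature. All genes over 50 kb had medians of -0.003, 0.07 and -0.04. The RNAs Malat1, Neat1, Meg3 and Kcnq1ot1, which stay in the nucleus, had a median of 0.59 in stellate cells (3 of 4 higher past the fold) and of 0.45 in endothelial cells (2 of the 3 tested past the fold). In Kupffer cells their median was 0.10, with 0 of 3 past the fold. Whether intronic reads were counted is not stated in the sources used here, and the part of these values in the members' ratios was not tested.

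The difference of the summed members recurred across stellate cells of different state. Its log2 ratio was -0.12 in cells with 5 to 50 UMIs of Col1a1, Col1a2 and Col3a1 per 10000 and -0.12 in cells with 50 or more. Across ranges of total UMIs it was -0.34 under 10000, -0.12 at 10000 to 20000, -0.16 at 20000 to 30000 and -0.18 at 30000 or more, and across mitochondrial shares it lay between -0.21 and -0.12. The share itself was slightly higher in collagen-rich cells, at 1.30% against 1.24% of UMIs in p16-LRTD and 1.19% against 1.14% in p16-Alb-LRTD. The difference between the libraries was thus of one sign in every range, although the libraries differed in the makeup of the class: cells with 50 or more collagen UMIs were 37.4% of stellate cells in p16-LRTD and 11.4% in p16-Alb-LRTD, and the 4 genes of activated HSCs summed to 8399 and 2864 CPM.

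Ndufa4l2, Cox4i2 and Cox6b2 were counted mainly in stellate cells in these libraries. In endothelial cells Ndufa4l2 had 9 and 1 UMIs and in Kupffer cells 6 and 2, so its level there was at most 1.46 CPM, compared with 82.2 and 46.2 in stellate cells. Of the Ndufa4 and Ndufa4l2 UMIs together, Ndufa4l2 contributed 15.7% and 12.4% in stellate cells and at most 0.359% elsewhere. With barcodes of several classes kept it was 6.72% and 6.48% in endothelial cells, and with doubled limits 0.921% in those of p16-LRTD. Cox4i2 made up 4.18% and 2.38% of Cox4i1 and Cox4i2 in stellate cells and at most 0.140% elsewhere, and Cox6b2 made up 2.91% and 1.81% of Cox6b1 and Cox6b2 in stellate cells and at most 0.292% elsewhere. Its 0 UMIs in endothelial cells of p16-Alb-LRTD allow up to 0.746 CPM by the limit of 3 counts (0.917 as the upper end of the exact interval). The common partner carried most of the transcripts in every class, and in stellate cells the restricted isoform was lower in p16-Alb-LRTD also as a share of its group.

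With every cell thinned to 5000 UMIs (16 and 7 shallower stellate cells left out), Ndufa4l2 was detected in 31.5% and 18.1% of stellate cells, and unthinned in 60.3% and 40.7%. In endothelial and Kupffer cells the thinned share was at most 0.478%. Unthinned, at their median depths of 11781 to 25244 UMIs, it was 1.86% and 0.352% in endothelial and 2.20% and 1.14% in Kupffer cells. The part of free RNA in these shares was not tested. Cox4i2 was detected in 8.81% and 4.60% of thinned stellate cells (23.9% and 14.7% unthinned) and in at most 0.373% of the other classes. Cox6b2 was detected in 2.96% and 1.75% (9.0% and 6.03% unthinned) and in at most 0.746% elsewhere. In stellate cells detection thus followed the CPM in its order for all 3 genes, and both rest on the same UMIs. With the few UMIs of the other classes the order did not always hold.

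Coding sequences were compared to show how far apart each isoform and its partner are, since 3′ reads of near-identical copies could be split between them. Ndufa4 and Ndufa4l2 were identical at 168 of 245 aligned coding bases (68.6%), with a longest identical run of 28 bases, and Cox6b1 and Cox6b2 at 166 of 257 (64.6%), with a longest run of 14. The other isoform pairs shared 56.4% to 74.8%. The coding sequences of the principal GENCODE vM21 transcripts follow in lower case, with capitals for bases that differ from the partner or are not aligned with it.
Ndufa4: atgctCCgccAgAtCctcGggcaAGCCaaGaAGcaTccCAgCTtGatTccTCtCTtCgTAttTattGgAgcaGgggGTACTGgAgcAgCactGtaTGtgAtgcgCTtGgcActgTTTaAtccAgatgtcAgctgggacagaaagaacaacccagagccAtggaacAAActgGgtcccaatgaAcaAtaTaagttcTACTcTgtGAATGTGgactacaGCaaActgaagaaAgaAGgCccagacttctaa
Ndufa4l2: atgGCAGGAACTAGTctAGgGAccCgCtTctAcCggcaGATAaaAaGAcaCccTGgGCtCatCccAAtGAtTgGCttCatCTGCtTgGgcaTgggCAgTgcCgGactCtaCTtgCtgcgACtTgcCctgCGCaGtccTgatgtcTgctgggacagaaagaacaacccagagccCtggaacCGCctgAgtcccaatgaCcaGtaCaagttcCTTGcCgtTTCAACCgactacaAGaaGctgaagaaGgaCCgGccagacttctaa
Cox6b1: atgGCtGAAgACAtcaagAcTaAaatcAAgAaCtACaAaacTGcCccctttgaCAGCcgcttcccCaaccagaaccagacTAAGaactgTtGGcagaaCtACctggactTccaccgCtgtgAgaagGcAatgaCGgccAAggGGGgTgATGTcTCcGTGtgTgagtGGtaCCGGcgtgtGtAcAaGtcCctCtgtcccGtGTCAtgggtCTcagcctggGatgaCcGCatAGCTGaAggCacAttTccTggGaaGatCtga
Cox6b2: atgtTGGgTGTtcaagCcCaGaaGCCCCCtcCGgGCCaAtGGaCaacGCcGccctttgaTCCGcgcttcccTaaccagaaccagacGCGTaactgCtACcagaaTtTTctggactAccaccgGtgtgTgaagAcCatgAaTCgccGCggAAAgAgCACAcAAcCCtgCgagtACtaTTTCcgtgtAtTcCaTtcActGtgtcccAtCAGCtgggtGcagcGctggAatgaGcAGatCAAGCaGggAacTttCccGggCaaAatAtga

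The 3 isoforms differed from each other within the stellate class. In p16-LRTD, Ndufa4l2 stood at 113.9 CPM in cells with 5 to 50 collagen UMIs per 10000 and at 41.1 CPM in cells with 50 or more, and Cox4i2 at 23.5 and 11.1 CPM. In p16-Alb-LRTD the values were 48.9 and 24.6 CPM for Ndufa4l2 and 9.88 and 6.45 CPM for Cox4i2. Both were thus lower in collagen-rich cells in each library, and lower in p16-Alb-LRTD within each range, with log2 ratios of -1.22 and -0.74 for Ndufa4l2 and of -1.25 and -0.78 for Cox4i2.

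Cox6b2 went the other way, at 3.22 and 12.1 CPM in p16-LRTD and 3.34 and 7.54 CPM in p16-Alb-LRTD for the same ranges. In cells with at least 2 UMIs of the proliferation genes Mki67, Top2a, Cenpf and Ccnb1 (222 and 42 cells, 2.83% and 0.634% of the class), Cox6b2 stood at 33.3 CPM from 198 UMIs and 4.74 CPM from 5 UMIs. In the other stellate cells it stood at 5.93 and 3.80 CPM (log2 ratio -0.64, from -0.81 to -0.48). The proliferating cells, under 3% of the class, thus held 198 of the 1009 Cox6b2 UMIs of p16-LRTD. Without them Cox6b2 fell under the minimum of 5 CPM as a mean and was no longer counted, although its ratio stayed below the fold limit. In that setting 5 of 78 members fell past the fold, against 10.2% of all genes. In cells with 5 to 50 collagen UMIs per 10000 and 10000 to 20000 UMIs in all, the ratio was -1.36 for Ndufa4l2 (129 and 50.3 CPM), -1.35 for Cox4i2 (25.4 and 10.0 CPM) and 0.08 (-0.22 to 0.39) for Cox6b2, so the difference of Cox6b2 was not found there. At 5 to 50 collagen UMIs and 20000 to 30000 UMIs in all, the ratio of Cox6b2 was 0.38 (-0.09 to 0.87).

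The difference of Ndufa4l2 also varied with the depth of the cell. Its log2 ratio was -2.07 in stellate cells under 10000 UMIs, -1.12 at 10000 to 20000, -0.24 at 20000 to 30000 and -0.42 at 30000 or more. It missed the fold at 20000 to 30000 UMIs over the whole class, but passed it at that depth within each collagen range, at -0.66 (5 to 50 collagen UMIs per 10000) and -0.41 (50 or more). Ndufa4 lay between -0.58 and -0.38, Cox5a between -0.73 and -0.39 and Ndufc2 between -0.91 and -0.37 in all 4 ranges. Ndufa4, Cox5a and Ndufc2 thus passed the fold at every depth. In proliferating cells Ndufa4l2 stood at 40.5 and 57.8 CPM and Cox4i2 at 17.8 and 22.7 CPM, so neither was lower in p16-Alb-LRTD among those few cells.

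**Figure D4:**
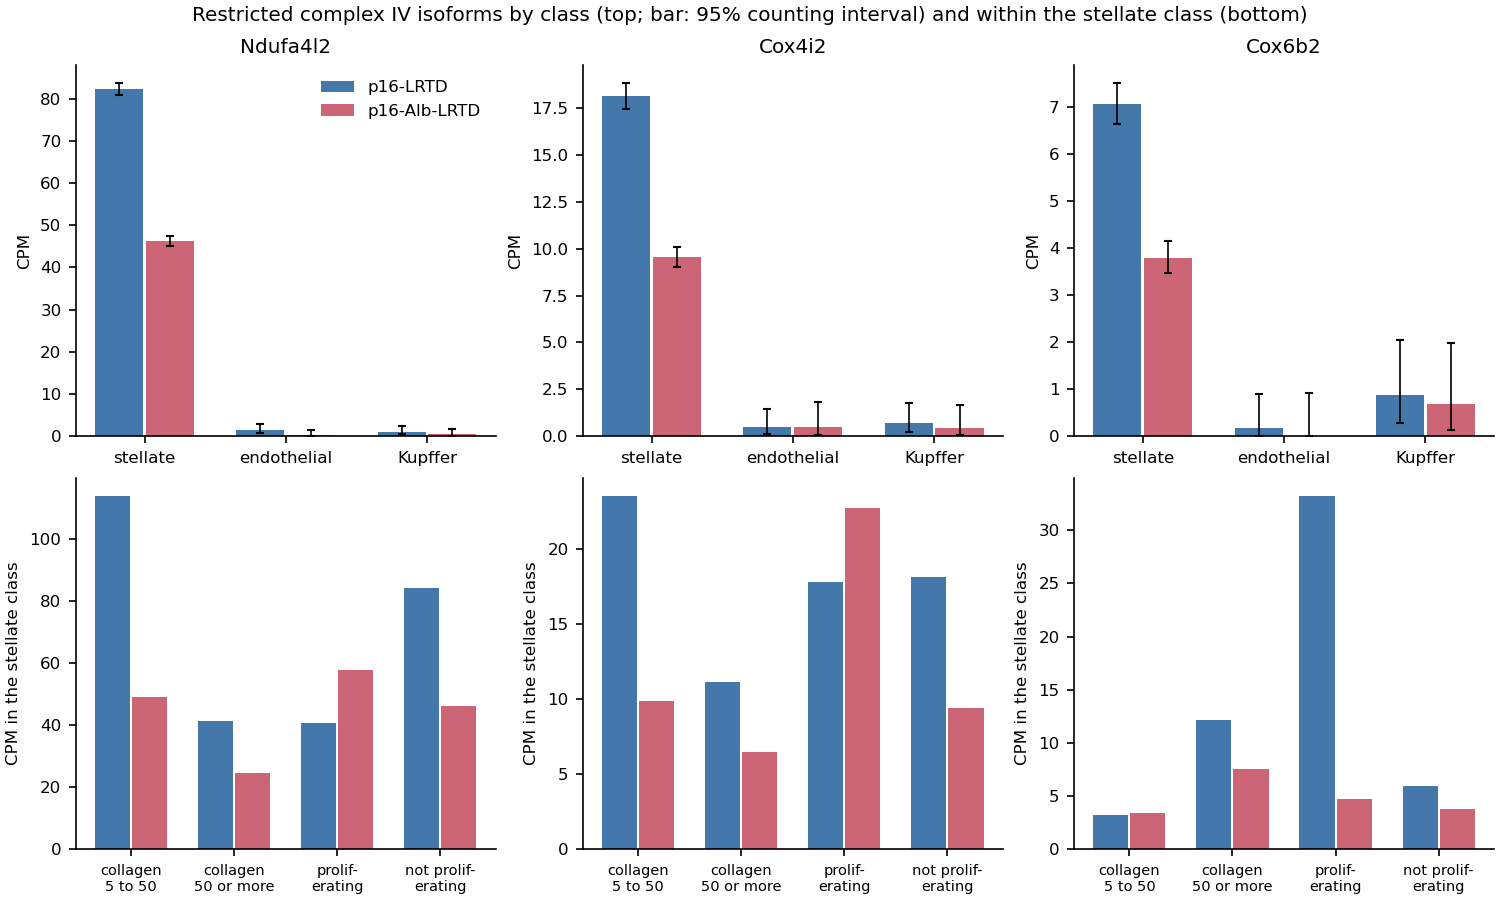
CPM of Ndufa4l2, Cox4i2 and Cox6b2 by class and library (top, with 95% counting intervals) and within the stellate class (bottom) by collagen UMIs per 10000 and by detection of proliferation genes. Ndufa4l2 and Cox4i2 were lower in collagen-rich cells (41.1 against 113.9 CPM of Ndufa4l2 in p16-LRTD), whereas Cox6b2 was highest in the proliferating cells of p16-LRTD (33.3 CPM).

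The remaining isoform groups were almost wholly of 1 gene, apart from the c-ring genes. Cox6a2, Cox7a1 and Cox8b, isoforms of heart and skeletal muscle, and Cox7b2 and Cox8c, known from testis, stayed under 5 CPM in every class. Cox7b2 had 0 UMIs in all classes, which allows up to 0.0210 and 0.0240 CPM in stellate cells (3 counts), and Cox8c 1 UMI in p16-LRTD stellate cells. Cox8b had 138 and 253 UMIs in stellate cells, which is 0.967 and 2.02 CPM and a log2 ratio of 1.06 (0.76 to 1.37). It was higher in p16-Alb-LRTD but lay under the level at which members were counted. In stellate cells Cox7a1 had 34 UMIs and Cox6a2 4 in each library. Kupffer cells held 8 and 6 UMIs of Cox7a1 and 5 and 2 of Cox6a2, and endothelial cells 0 and 7 of Cox6a2.

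The 3 genes Atp5g1, Atp5g2 and Atp5g3 encode the same mature c subunit behind different import signals. In stellate cells they contributed 25.8%, 47.8% and 26.5% of their summed UMIs in p16-LRTD and 24.9%, 49.7% and 25.4% in p16-Alb-LRTD. The endothelial split was 23.2%, 44.0% and 32.8%, and 17.9%, 46.6% and 35.5%. Kupffer cells gave 24.7%, 44.6% and 30.6%, and 24.9%, 44.6% and 30.5%. Atp5g2 was the main source in every class, and the split moved between the libraries mainly in endothelial cells, where Atp5g1 was lower.

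Between classes, most members were at or below their stellate level in the other cells of the same library. In endothelial cells 26 of 78 members were lower than in stellate cells past the fold in both libraries (33.3%, against 25.4% of 10186 genes) and 2 were higher (2.56%, against 37.6% of all genes). Their medians were -0.19 and -0.45 in the 2 libraries, while all genes had medians of 0.21 and 0.14. TMM scaling, which matches the bulk of the genes between classes, shifted every ratio by -0.28 and -0.27 in this comparison and gave 52 lower members (66.7%) and none higher, against 34.6% and 26.2% of all genes with the same scaling, so the count depends on the scaling. Ndufa4l2 and Cox4i2 entered only through their stellate level, which fixed their direction. With 5 CPM required in both classes, 24 of 76 were lower (31.6%), against 20.2% of 8630 genes. Complex I accounted for 17 of these. Among them, the lowest were Cox6c (298 and 237.5 CPM, log2 ratios of -1.09 and -1.40), Ndufa13 (-1.07 and -1.36) and Ndufa11, an accessory subunit of the membrane arm (-0.81 and -1.29). The 2 that were higher were Ndufa8, an accessory subunit of complex I (172 and 119 CPM, log2 ratios of 0.82 and 0.56), and Cox6a1 (182 and 133 CPM, 0.70 and 0.34). Ndufs1, the largest iron-sulphur subunit of complex I (0.46 and 0.20), Sdha (0.31 and 0.12) and Atp5a1, the alpha subunit of the ATP synthase (0.43 and 0.01), came next without passing the fold in both. The ratios of Sdha, Atp5a1 and Ndufs1 in p16-Alb-LRTD would lie below 0 with TMM scaling, and those of Ndufa8 and Cox6a1 above 0.

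Kupffer cells had 23 of 77 members past the fold below the stellate level in both libraries (29.9%, against 36.5% of 10241 genes) and 3 above it (3.90%, against 31.4%). Ndufa4l2 again entered only through its stellate level, and without such members 22 of 76 were lower (28.9%), against 30.2% of 8136 genes, a share near the background. Medians were -0.14 and -0.20 beside -0.08 for all genes in each library, and -0.29 and -0.35 when only cells of 10000 to 30000 UMIs were compared. Complex I again held 18 of the lower members, complex II and complex III none, and all 4 complex II members had ratios above 0 in both libraries, although that of Sdha in p16-Alb-LRTD (0.04) was below 0 with TMM scaling. Ndufb11 (-1.04 and -1.31), Ndufa5, a subunit of the matrix arm (-1.04 and -1.10), Cox6c (316.5 and 284.3 CPM, -1.0 and -1.14) and Ndufa11 (-0.97 and -0.89) were lowest after Ndufa4l2. Complex I medians were -0.33 and -0.46 and complex II medians 0.36 and 0.34, although 7 and 3 of 36 complex I members were above 0 and Sdhd was the only complex II member past the fold in both libraries.

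Cox5a stood apart from all other members in Kupffer cells. Its level was 803 CPM (4598 UMIs) and 784 CPM (3467 UMIs), compared with 212 and 158 CPM in endothelial and 184 and 139 CPM in stellate cells. The log2 ratio over stellate cells was 2.13 (2.08 to 2.17) and 2.50 (2.45 to 2.55), the highest of the 77 members in both libraries. Thinned to 5000 UMIs, 95.9% and 96.0% of Kupffer cells had a Cox5a UMI, against 58.9% and 49.2% of stellate cells. Its level did not differ between the libraries beyond counting error in Kupffer cells (-0.04, from -0.10 to 0.03), although it fell in stellate cells. The other members above the fold in both libraries were Sdhd (69.7 and 71.6 CPM, 0.58 and 0.76) and Atp5f1, the peripheral stalk subunit b (205 and 194 CPM, 0.47 and 0.57). Several members passed it in 1 library only, among them Sdhc, the other membrane anchor of complex II (0.32 and 0.44), and the uncertain Atp5o feature (0.88 and 0.19).

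**Figure D5:**
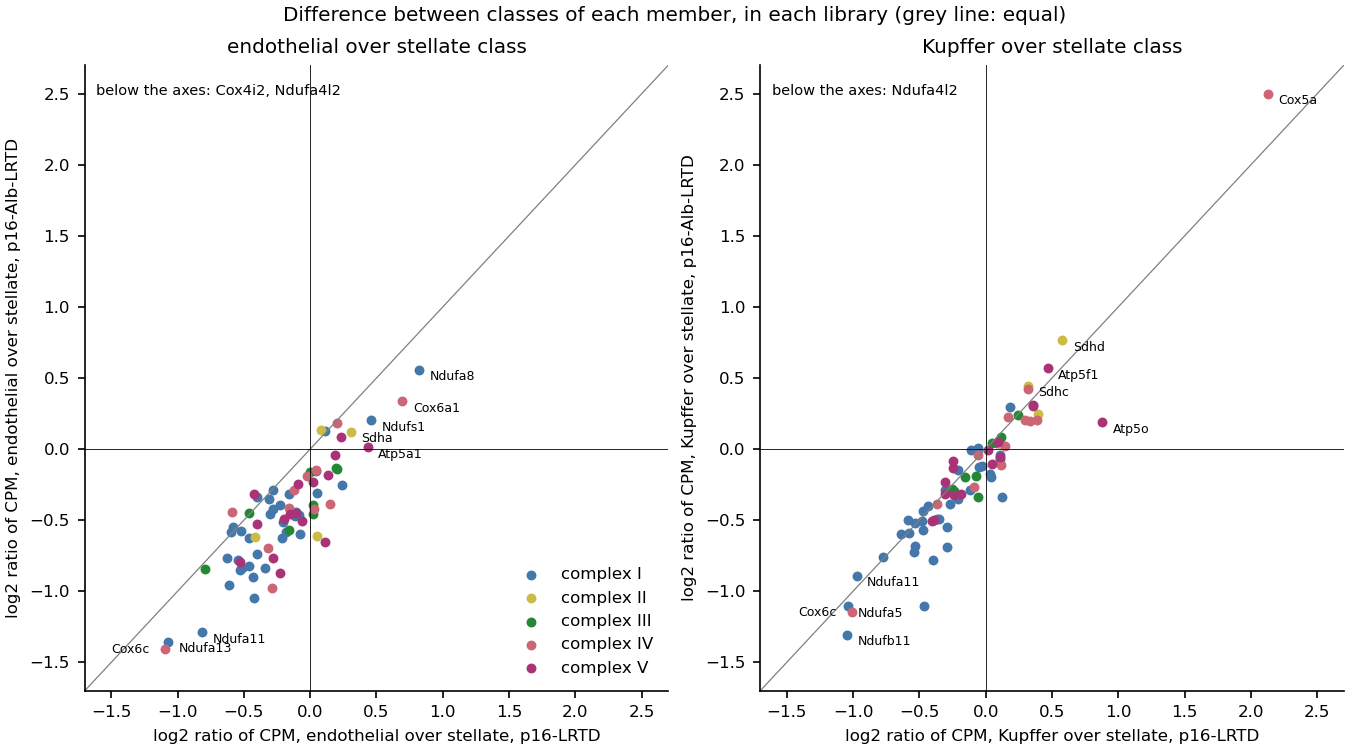
Log2 ratio of CPM of each member over its stellate level, in p16-LRTD (x axis) and p16-Alb-LRTD (y axis), for endothelial (left) and Kupffer cells (right), coloured by complex; members below the axes are named in the panel. Of the points, 53 of 78 endothelial and 46 of 77 Kupffer members lie below 0 on both axes, 69 of the endothelial ones lie under the line of equality, and Cox5a in Kupffer cells lies at 2.13 and 2.50, far from the rest.

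The other lists gave a background to these class differences. Relative to stellate cells, 68 of 83 cytosolic ribosomal proteins and 26 of 77 mitochondrial ribosomal proteins were lower in endothelial cells in both libraries, and 7 of 13 mitochondrially encoded subunits and 7 of 9 regulators higher. In Kupffer cells 43 of 83 and 28 of 77 ribosomal proteins were lower, 4 of 13 mitochondrially encoded subunits higher and 2 lower, and 9 of 16 glycolysis genes higher and 4 lower, compared with 3 higher and 7 lower in endothelial cells. For cytosolic ribosomal proteins these shares were 81.9% and 51.8%, above the 25.4% and 36.5% of all genes, and for mitochondrial ribosomal proteins 33.8% and 36.4%, the latter at the background. For the other lists the background of higher genes was 37.6% in endothelial and 31.4% in Kupffer cells, so the 4 of 13 mitochondrially encoded subunits also lay at it. The class limits select on UMI shares of stellate, endothelial and Kupffer genes, not on members.

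Promoter windows from RefSeq (GRCm38.p6, 250 bases before to 50 after the start) were found for 69 of the 84 members, 73 windows in all, and searched on both strands for the letters of factors known to drive respiratory genes. The NRF1 letters GCGCATGCG were in 11% of member windows and 1.75% of all 32851 windows, the ETS letters CCGGAAG bound by GABP in 21.9% and 8.86%, and the YY1 letters AAGATGGC in 13.7% and 2.75%. The SP1 letters GGGCGG were in 39.7% and 35.7% and the TATA letters TATAAA in 11% and 13.6%. The hypoxia-response letters, searched after the levels of Ndufa4l2 were seen, were in 24.7% and 19.6% (ACGTG) and in 52.1% and 32.4% (GCGTG). Member windows thus held the NRF1, ETS and YY1 letters more often than windows in general, as a description of letters and not of binding. The window of Atp5l, the highest member of complex V in stellate cells, is shown because it held 1 NRF1 and 2 ETS matches (in capitals, either strand; chr9:44920693-44920992, minus strand, GRCm38.p6).
Atp5l: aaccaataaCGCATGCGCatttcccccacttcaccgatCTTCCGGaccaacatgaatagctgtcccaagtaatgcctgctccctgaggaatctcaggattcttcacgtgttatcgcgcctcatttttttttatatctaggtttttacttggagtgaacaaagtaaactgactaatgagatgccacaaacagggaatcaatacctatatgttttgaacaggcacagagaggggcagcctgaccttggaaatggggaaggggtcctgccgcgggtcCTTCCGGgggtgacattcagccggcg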

How the data were processed

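Droplet 3′ single-cell RNA-seq of HSC preparations was deposited by the authors as raw UMI counts for each gene and cell barcode. They came from Cell Ranger 7.0.1 on mm10 (submitters' processing notes). Cells above 5% mitochondrial UMIs, with under 2000 or over 7000 genes or over 50000 UMIs were left out, after the study's limits. No doublet caller was run: barcodes that reached more than 1 class limit were dropped. Counts were summed per library and class and scaled to CPM. Genes at 5 CPM or more as the mean of the sums compared entered counts of differences past the fold (0.32 on the log2 scale). Levels have exact Poisson, ratios exact conditional and shares Clopper-Pearson 95% intervals, and UMIs are not independent of dissociation or capture. The members and lists were chosen with earlier results of these data known. Named genes were every isoform member, the 8 highest and lowest ratios in stellate cells, 4 in the other classes, 5 in each class difference (same sign in both libraries) and the extremes of each complex. Intervals were tested on simulated counts. Alternatives changed scaling, filters, limits, depth and weighting. Coordinates came from GENCODE vM21 and promoters from RefSeq. Python 3.11.15, numpy 2.4.6, scipy 1.17.1, pandas 2.3.3, matplotlib 3.10.9, R 4.3.3 and edgeR 4.0.16 (TMM factors only) were used.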

Additional observations from a re-analysis of the deposited data

Results flagged for a closer look

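Among the members named above, 4 had ratios of p16-Alb-LRTD over p16-LRTD on opposite sides of 0 in different classes, with counting intervals that excluded 0 in both. With 1 library per genotype the difference between classes was not tested, and each sign rests on a single library per genotype. Ndufa3 stood at 0.08 (0.04 to 0.11) in stellate and -0.28 (-0.50 to -0.07) in endothelial cells, a difference of 0.36 on the log2 scale. Ndufa6 stood at 0.06 in stellate and -0.20 in Kupffer cells, a difference of 0.26. Uqcrh stood at 0.07 in stellate and -0.21 in Kupffer cells, a difference of 0.28. The feature Atp5o (ENSMUSG00000116933), whose reads may belong to overlapping genes, stood at 0.18 in stellate and -0.51 in Kupffer cells, a difference of 0.69. None of the stellate values passed the fold, and of the others only that of Atp5o did. With TMM or median-of-ratios scaling the endothelial interval of Ndufa3 and the Kupffer interval of Ndufa6 included 0, and the opposite signs of Uqcrh and Atp5o held.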

How the results depend on the processing

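The median member ratio between libraries was below 0 under every alternative run, from -0.15 to -0.10 in stellate, -0.45 to -0.33 in endothelial and -0.24 to -0.15 in Kupffer cells. TMM or median-of-ratios scaling gave a stellate median of -0.10 each, 10 lower Kupffer members in place of 18, 45 lower endothelial members in place of 55 (against 23.1 and 22.5% of all genes) and 2 higher endothelial members in place of 0 (20.2 and 20.8%). They also shifted the ratios of endothelial over stellate cells, by -0.28 and -0.27 (TMM) and -0.24 and -0.20, and so the members' medians to -0.47 and -0.73 (TMM) and -0.43 and -0.65 (p16-LRTD, p16-Alb-LRTD), with 52 and 50 members lower in both libraries in place of 26. At 1.5-fold 3 of 79 stellate, 14 of 76 endothelial and 2 of 76 Kupffer members were lower, against 3.05, 13.4 and 6.33% of all genes. Requiring 5 CPM in both sums compared, an alternative chosen after seeing the data, gave 5 lower stellate members in place of 6 and left the other counts between libraries as they were. A minimum of 1 UMI gave 1 higher stellate and 2 higher endothelial members (20.2 and 25.3% of all genes). Per-cell means gave 10 lower Kupffer and 1 higher endothelial member (20.004 and 16.3% of all genes), and thinning 3 higher Kupffer and 1 higher endothelial (19.5 and 18.6%). With 10000 to 30000 UMIs, Kupffer over stellate medians were -0.29 and -0.35.

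Member shares (stellate, endothelial, Kupffer cells, p16-LRTD before p16-Alb-LRTD) were 1.26, 1.14, 1.10, 0.891, 1.18 and 1.04% with barcodes of several classes kept, 1.28, 1.16, 1.12, 0.847, 1.12 and 0.967% with 10000 to 30000 UMIs, 1.30, 1.17, 1.14, 0.853, 1.23 and 1.07% with the 13 left-out genes, 1.27, 1.16, 1.13, 0.844, 1.14 and 1.04% as per-cell means, 1.26, 1.14, 1.09, 0.853, 1.30 and 1.13% without a cell filter and 1.48, 1.35, 1.24, 0.925, 1.38 and 1.19% without mt-, ribosomal protein genes and Malat1 in the total. Thinning gave 1.28 and 1.16% (stellate), 0.843% (endothelial, p16-Alb-LRTD) and 1.16 and 1.04% (Kupffer), doubled limits 1.26, 1.14 and 1.10%, and a 10% mitochondrial limit 1.26, 1.14 and 1.09% (stellate of both, endothelial of p16-LRTD). Without proliferating cells the p16-LRTD shares were 1.26, 1.09 and 1.20% and the p16-Alb-LRTD Kupffer share 1.04%.

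With barcodes of several classes kept, isoform shares outside stellate cells rose to 6.72 and 6.48% (Ndufa4l2, endothelial) and 3.18% (Kupffer, p16-LRTD), to 1.59, 1.05 and 0.396% for Cox4i2 and to 0.495 and 0.545% for Cox6b2 (endothelial). Doubled limits gave 0.921% for Ndufa4l2 in endothelial cells of p16-LRTD, and thinning gave 0% for several of these shares. In stellate cells of p16-LRTD, Ndufa4l2 was 15.9% (10000 to 30000 UMIs), 16% (doubled limits), 17.6% (per-cell means), 15.1% (no filter), 17.3% (thinned) and 16.2% (no proliferating cells), Cox6b2 2.69, 2.71, 2.61, 3.21, 2.71 and 2.47% in that order, and Cox4i2 4.65% (per-cell means) and 4.63% (thinned). Among named ratios past the fold, signs reversed for Ndufv1 in Kupffer cells when thinned (0.29), and for Cox6b2 in the range of collagen and UMIs chosen after seeing the data (0.084), as at 5 to 50 collagen UMIs in all cells (0.05) and in those of 20000 to 30000 UMIs (0.38). Several ratios near 0 also changed sign, such as Atp5b in Kupffer cells (-0.21 to 0.09) and the uncertain Atp5o feature in endothelial cells (-0.01 to 0.51). The cause was not tested in any of these cases. No paired analysis was possible because there was only 1 library of either genotype, and no library could be left out.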

Other observations

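Some genes of the ATP synthase and of complex III do not carry the listed prefixes, and their levels in stellate cells are given here. Cyc1, the cytochrome c1 of complex III, stood at 60.4 and 56.1 CPM in p16-LRTD and p16-Alb-LRTD (log2 ratio -0.11), and Atpif1, the inhibitor of the ATP synthase, at 221 and 185 CPM (-0.25). Usmg5 and 2010107E04Rik, which encode small membrane subunits of the ATP synthase, stood at 98.3 and 99.0 CPM and at 133 and 134 CPM, with log2 ratios of 0.01 each, whereas 15 of 16 complex V members were below 0. The 4 Sdhaf genes, assembly factors of complex II left out of the members, had log2 ratios of -0.52 (Sdhaf1), -0.24 (Sdhaf2), -0.06 (Sdhaf3) and -0.47 (Sdhaf4), on both sides of the complex II subunits, which lay between -0.24 and -0.08. These genes were chosen after their values were seen.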
